A study of Mus musculus with 2 samples.

Results

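Dead cell uptake, or efferocytosis, was followed through 8 genes of the 31253 listed in the files. Their receptors were Timd4, Mertk, Axl, Stab1 and Itgav, and their bridging molecules were Gas6, Pros1 and Mfge8. The genes were chosen by symbol with the UMI counts of these 2 libraries already known, so their values are a description, with no test. The libraries held Cd45+ cells from B16-F10 tumors, a transplanted mouse melanoma, and were made on the BD Rhapsody platform. B16-F10 cells (200000) had been injected under the skin of C57BL/6 mice (C57BL/6J background in the methods), and tumors were taken on day 10. One library was labelled Irg1+/+ and the other Irg1-/-, and each pooled pieces of 100 mm3 from the tumors of 3 mice. The deletion was in the host, and the tumor cells were the same B16-F10 line in both groups. About 6000 cells per sample were sorted according to the labels, and the files held 6408 and 5896 barcodes. With 1 pooled library per genotype no test between genotypes was possible, and every interval below is a 95% interval that covers counting error only. For tumors under the skin the methods give female mice of 8 to 10 weeks, and for all experiments 6 to 10 weeks; the age of the mice in each pool is not stated separately.

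A dying cell exposes phosphatidylserine on its surface. Timd4 encodes a receptor that holds this lipid directly and is best known from tissue-resident macrophages. Mertk and Axl encode receptor tyrosine kinases that reach phosphatidylserine through the soluble proteins of Gas6 and Pros1, while the protein of Mfge8 links it to integrins that contain the product of Itgav. Stab1 encodes a scavenger receptor of macrophages and some endothelia that can also bind phosphatidylserine. Dendritic cells take up dead cells too, and use them as a source of antigen.

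After barcodes with 10% or more mitochondrial UMIs were left out, 6284 cells (42105693 UMIs, median 4528 per cell) remained in the library labelled Irg1+/+ and 5794 cells (35307041 UMIs, median 4594) in the library labelled Irg1-/-. The leukocyte gene Ptprc had a UMI in 88.0% and 91.5% of them. The lists of barcodes had 36 entries in common. Cells were placed by marker gates, so the class names are ranges of marker content and not proven types. C1q macrophages were 1445 and 1001 cells, monocytes 914 and 1355, and dendritic cells 850 and 732, the last made up of Cd209a, Xcr1 and Ccr7 gates. The gate of C1q macrophages was set at 30 marker UMIs per 10000. Of the 2446 C1q macrophages 244 lay near it, with 36 or fewer, and 245 cells near it on the lower side, with 24 or more, had no class. The macrophages held a median of 72.3 and 79.5 UMIs of the C1q macrophage markers per 10000, against 12.5 and 12.7 in the dendritic cells.

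Acod1, also called Irg1, makes itaconate. It did not separate the labels: it had 3696 UMIs, or a level of 87.8 CPM, in the library labelled Irg1+/+ and 3805 UMIs, or 107.8 CPM, in the library labelled Irg1-/-. The assay counts transcript tags, and where the deleted part of the gene lies is not given in the sources used here, so this level checks nothing about the genotype. Directions below are therefore between labelled libraries. CPM stands for the UMIs of a gene scaled to a common total of UMIs of the same class, and where 2 values are joined by "and" the library labelled Irg1+/+ comes first.

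Over all kept cells Timd4 differed more between the libraries than the other 7 genes, and its level was higher in dendritic cells than in macrophages in both. It had 431 UMIs in the library labelled Irg1+/+ and 2098 in the library labelled Irg1-/-, or 10.2 CPM (9.29 to 11.3) and 59.4 CPM (56.9 to 62.0). The log2 ratio was 2.54 (2.39 to 2.69), a 5.80-fold higher level in the library labelled Irg1-/-. Dendritic cells held 52.4% of the Timd4 UMIs of the library labelled Irg1+/+ and 44.8% of those of the library labelled Irg1-/-. C1q macrophages held 11.1% and 10.1%.

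Timd4 (ENSMUSG00000055546) is a protein-coding gene on the plus strand of chr11:46810800-46844332 (GRCm38) and overlaps no other annotated gene. The 250 bases before its RefSeq start, chr11:46810549-46810798 of GRCm38.p6, are shown because this gene carried the widest difference. Capitals mark a match to the ETS and IRF composite element (EICE: GGAA, any 2 bases, then GAAA), which the factors encoded by Spi1 and Irf8 or Irf4 are known to bind. Inside it lie the shorter ETS letters GGAAGT.
Timd4: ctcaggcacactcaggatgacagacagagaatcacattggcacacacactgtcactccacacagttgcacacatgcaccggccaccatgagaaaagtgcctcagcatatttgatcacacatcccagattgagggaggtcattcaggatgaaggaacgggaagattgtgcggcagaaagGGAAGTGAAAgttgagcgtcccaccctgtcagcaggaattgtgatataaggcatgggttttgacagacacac
The match starts 72 bases before the gene's start. EICE and GGAAGT were searched on both strands, and were chosen after this sequence had been seen. EICE stood in 2.30% of 32851 mouse promoters of the same length, and GGAAGT in 19.7%. Among the 8 genes Timd4 was the only one with EICE, while Itgav held GGAAGT at 2 places, 54 and 9 bases before its start. A match of letters is a description and not a binding site.

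Among the dendritic gates Timd4 was highest in Cd209a dendritic cells, the gate of type 2 dendritic cells. There it had 70.0 CPM (54.9 to 87.9; 74 UMIs in 165 cells) in the library labelled Irg1+/+ and 224.5 CPM (201.6 to 249.3; 350 UMIs in 213 cells) in the library labelled Irg1-/-. Ccr7 dendritic cells, the mature migratory gate, had 40.6 CPM (33.1 to 49.2) and 155.4 CPM (139.5 to 172.7). Xcr1 dendritic cells, the cross-presenting type 1 gate, had 17.7 CPM (13.1 to 23.4) and 150.0 CPM (131.7 to 170.0). The libraries did not overlap in any of these gates.

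**Figure D1:**
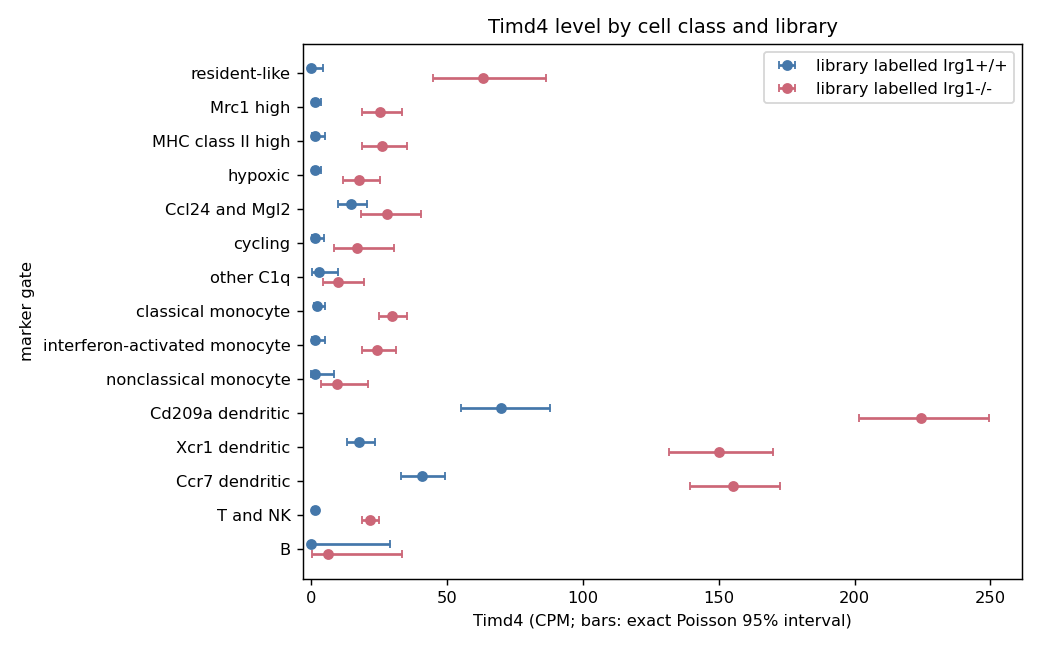
Timd4 in CPM (horizontal axis) for each marker gate (vertical axis); points are the 2 labelled libraries and bars the exact Poisson 95% interval of the count. Cd209a, Ccr7 and Xcr1 dendritic cells lie furthest to the right in the library labelled Irg1-/-, at 224.5, 155.4 and 150.0 CPM.

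The dendritic gates stood in the same order in both libraries, with different steps between them. Cd209a cells of the library labelled Irg1+/+ exceeded Ccr7 cells by a log2 ratio of 0.79 (0.33 to 1.23), and Ccr7 cells exceeded Xcr1 cells 2.29-fold. Cd209a cells of the library labelled Irg1-/- again led Ccr7 cells by 0.53 (0.31 to 0.75), while Xcr1 and Ccr7 cells could not be separated, at a log2 ratio of -0.05 (-0.29 to 0.19). The step between libraries was a log2 ratio of 1.67 (1.32 to 2.06) in Cd209a cells, 1.93 (1.62 to 2.27) in Ccr7 cells and 3.07 (2.64 to 3.56) in Xcr1 cells. The interval in Xcr1 cells did not overlap those of the other two gates. Plasmacytoid dendritic cells had 2 UMIs in 40 cells and 1 UMI in 31 cells.

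C1q macrophages had 48 Timd4 UMIs (3.57 CPM, 2.63 to 4.74) in the library labelled Irg1+/+ and 212 UMIs (24.9 CPM, 21.7 to 28.5) in the library labelled Irg1-/-. The log2 ratio was 2.79 (2.34 to 3.29). One cell of the Ccl24 and Mgl2 gate held 28 of the 48 UMIs, and without it the macrophages of the library labelled Irg1+/+ had 1.49 CPM. With all cells kept, the macrophage level lay 9.85-fold below that of dendritic cells in the library labelled Irg1+/+ and 6.96-fold below in the library labelled Irg1-/-. The former gap is wider without that cell.

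T and NK cells were taken as a class that should largely lack the gene, to set a level for free RNA. They had 13 Timd4 UMIs in 1783 cells (1.22 CPM) in the library labelled Irg1+/+ and 172 UMIs in 1516 cells (21.6 CPM) in the library labelled Irg1-/-. One of these cells held 52 UMIs, and the rest came to 15.1 CPM. Macrophages of the library labelled Irg1-/- exceeded T and NK cells by a log2 ratio of 0.20 (-0.09 to 0.50) and monocytes by 0.29 (-0.01 to 0.59). The T and NK level was not even: 189 of these cells lay in 3 clusters with Foxp3, the regulatory T cell factor, among their leading genes, and held 104 of the 172 UMIs (69.3 CPM), the cell with 52 included. Without that cell they had 34.9 CPM (26.1 to 45.8). One cluster led by Ctla4 held 95 of the 104 UMIs in 54 cells, and the cluster led by Foxp3 itself had 2 UMIs in 98 cells. The other 1327 T and NK cells had 68 UMIs (10.5 CPM, 8.18 to 13.4). Over these other cells the log2 ratio was 1.24 (0.84 to 1.66) for macrophages and 1.32 (0.92 to 1.74) for monocytes. With the cell holding most Timd4 UMIs left out of each class, and all other T and NK cells kept, it was 0.59 (0.26 to 0.93) and 0.54 (0.20 to 0.89). Whether macrophages and monocytes of that library stood above the T and NK reference thus turned on the choice of T and NK cells, which was made after seeing the data. Its neutrophils had 1 Timd4 UMI in 144 cells (3.53 CPM), B cells 1 in 58 (6.02 CPM) and eosinophils 2 in 78 (19.7 CPM). Plasmacytoid dendritic cells had 5.79 CPM on 1 UMI. These levels lay under those of macrophages (24.9 CPM) and monocytes (26.4 CPM), and each rested on 1 or 2 UMIs. The source of the Timd4 UMIs in any of these classes was not tested. Dendritic cells exceeded T and NK cells 28.2-fold in the library labelled Irg1+/+ and 8.02-fold in the library labelled Irg1-/-. Between the libraries T and NK cells themselves differed by a log2 ratio of 4.10 (3.34 to 5.09). The make-up of this class differed too. Its medians per 10000 UMIs were 37.7 and 21.2 for T cell markers and 1.45 and 12.7 for NK cell markers.

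Counted per cell, a Timd4 UMI was found in 1.45% of C1q macrophages (0.902 to 2.21) of the library labelled Irg1+/+ and in 12.0% (10.0 to 14.2) of those of the library labelled Irg1-/-, with median depths of 6516 and 7046 UMIs. T and NK cells had 0.673% and 5.47% at medians of 3487 and 2780 UMIs. With every cell thinned to 2000 UMIs the macrophage shares were 0.273% and 4.53% (3.21 to 6.20), and the T and NK shares 0.140% and 2.65% (1.79 to 3.76). Shallower cells were left out of the thinned shares, 345 and 185 macrophages and 357 and 383 T and NK cells. Dendritic cells stood at 7.76% and 29.5% before thinning and at 4.57% (3.15 to 6.39) and 17.0% (14.2 to 20.1) after it. Cells with 3 or more Timd4 UMIs were 30 of 850 dendritic cells (3.53%) in the library labelled Irg1+/+ and 104 of 732 (14.2%) in the library labelled Irg1-/-. Among macrophages they were 1 of 1445 and 17 of 1001, and among T and NK cells 0 of 1783 and 7 of 1516.

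**Figure D2:**
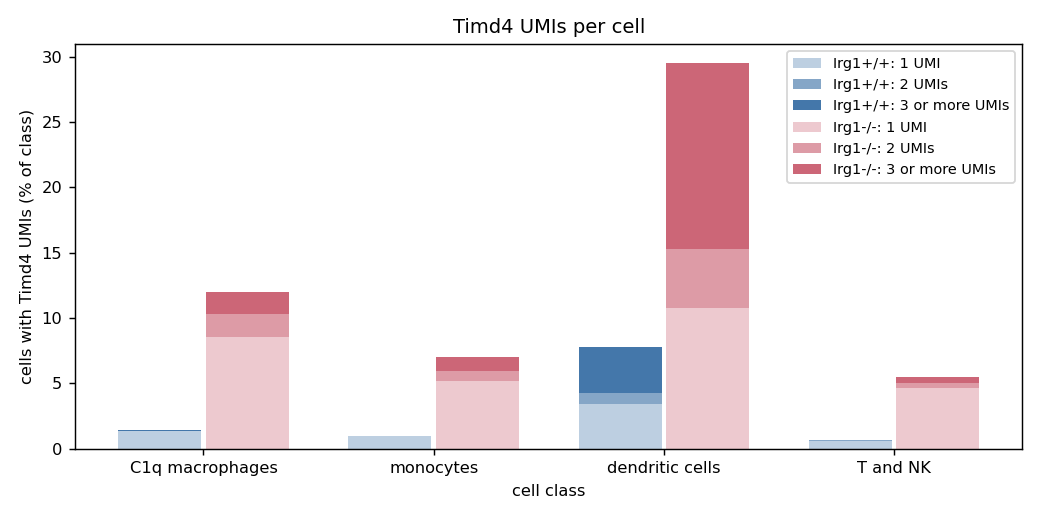
Share of cells with 1, 2 or 3 and more Timd4 UMIs (vertical axis, percent of the class) in 4 cell classes and the 2 labelled libraries, stacked from light to dark. Cells with 3 or more UMIs make up 14.2% of the dendritic cells of the library labelled Irg1-/- and 1.70% of its macrophages.

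Resident-like macrophages, gated by Lyve1, Cbr2, Cd163 and Folr2, are the state in which Timd4 would usually be sought. The 54 such cells of the library labelled Irg1+/+ had 0 Timd4 UMIs, with an exact upper 95% limit of 4.16 CPM. The 54 cells of the library labelled Irg1-/- had 39 UMIs in 15 cells, or 63.1 CPM (44.9 to 86.3). The lower 95% limit of the log2 ratio was 3.86. With 3 UMIs, or 3.38 CPM, put in place of the count of 0, the level was 18.7-fold higher. One cell held 19 of the 39, and the other 53 cells came to 34.1 CPM, 10.1-fold above the 3.38 CPM. Each with its top cell left out, they exceeded T and NK cells (15.1 CPM) by a log2 ratio of 1.20 (0.41 to 1.87). Within the library labelled Irg1-/- this state exceeded the Mrc1 high state by a log2 ratio of 1.32 (0.68 to 1.95) and T and NK cells by 1.56 (1.01 to 2.06). The log2 ratio was -0.12 (-0.70 to 0.41) over T and NK cells of the clusters with Foxp3. It was 2.59 (1.98 to 3.17) over the other T and NK cells. Over the Mrc1 high state it was 0.79 (-0.08 to 1.58) with the top cell of both left out, so that step rested on single cells. The other macrophage states of the same library lay between 9.87 and 27.8 CPM. Among them MHC class II high cells had 2 UMIs (1.44 CPM) in the library labelled Irg1+/+ and 41 UMIs (26.0 CPM) in the library labelled Irg1-/-, a log2 ratio of 3.87 (2.23 to 7.26). In the latter library their log2 ratio over T and NK cells was 0.28 (-0.26 to 0.76). Over those outside the clusters with Foxp3 it was 1.31 (0.71 to 1.88). Of the 12 macrophage, monocyte and dendritic gates with 50 or more cells in both libraries, all 12 had a higher Timd4 level in the library labelled Irg1-/-, and in 10 the interval of the ratio lay above 0.

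Genes around Timd4 did not move with it. Of 15 genes listed within 500000 bases on either side, 7 had 20 UMIs or more, and Timd4 was the only one at least 2-fold apart. Havcr2, a receptor of the same family, had 139.7 and 134.0 CPM over all cells, a log2 ratio of -0.06 (-0.12 to -0.00). Havcr1 had 97 and 77 UMIs (log2 ratio -0.08, -0.53 to 0.37), and Timd2 had 4 and 3.

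Mertk, the receptor tyrosine kinase most used as a macrophage marker, was highest in macrophages, where its ratio between the libraries was close to 1. C1q macrophages had 61.8 CPM (830 UMIs) in the library labelled Irg1+/+ and 59.8 CPM (509 UMIs) in the library labelled Irg1-/-, a log2 ratio of -0.05 (-0.21 to 0.11). Leaving out likely doublets, and with them all cells with 2 or more lymphocyte marker UMIs, kept 570 and 349 macrophages. Their median depths were 1512 and 2215 UMIs, against 6516 and 7046 before. In this shallower part Mertk had 44.6 and 78.1 CPM (73 and 91 UMIs), a log2 ratio of 0.81. Dendritic cells had 14 and 18 UMIs (2.20 and 3.33 CPM), close to the 2.34 and 2.76 CPM of T and NK cells. The macrophage level was thus 27.2-fold and 17.5-fold that of the dendritic cells. Among the states Mertk was highest in resident-like cells (87.9 and 89.0 CPM) and next in Mrc1 high cells (86.1 and 77.9 CPM), which could not be told apart (log2 ratios 0.04, -0.35 to 0.40, and 0.20, -0.28 to 0.64). Classical monocytes had 16.3 and 27.2 CPM, a log2 ratio of 0.73 (0.23 to 1.27).

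Axl, its relative, was spread more widely. It had 204.4 CPM in C1q macrophages of the library labelled Irg1+/+ and 212.7 CPM in those of the library labelled Irg1-/- (log2 ratio 0.06, -0.03 to 0.14). Monocytes had 163.5 and 143.5 CPM and dendritic cells 68.6 and 79.4 CPM. T and NK cells had 66.0 and 48.1 CPM, so the dendritic level was close to theirs in the library labelled Irg1+/+. Unlike Mertk, Axl was low in resident-like macrophages (114.9 and 98.7 CPM) and high in MHC class II high ones (291.0 and 324.6 CPM), a log2 ratio of -1.34 (-1.67 to -1.02) and -1.71 (-2.12 to -1.33). In the Ccl24 and Mgl2 state it fell from 309.9 to 193.6 CPM, a log2 ratio of -0.68 (-0.92 to -0.44). Other states went the other way: cycling macrophages had 202.1 and 264.9 CPM (0.39, 0.11 to 0.66) and hypoxic ones 121.3 and 145.1 CPM (0.26, 0.02 to 0.49). Retnla and Ear2 cells had 4 and 22 UMIs. Of the 12 gates with 50 or more cells in both libraries, 6 were higher in the library labelled Irg1-/- and 6 lower.

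**Figure D3:**
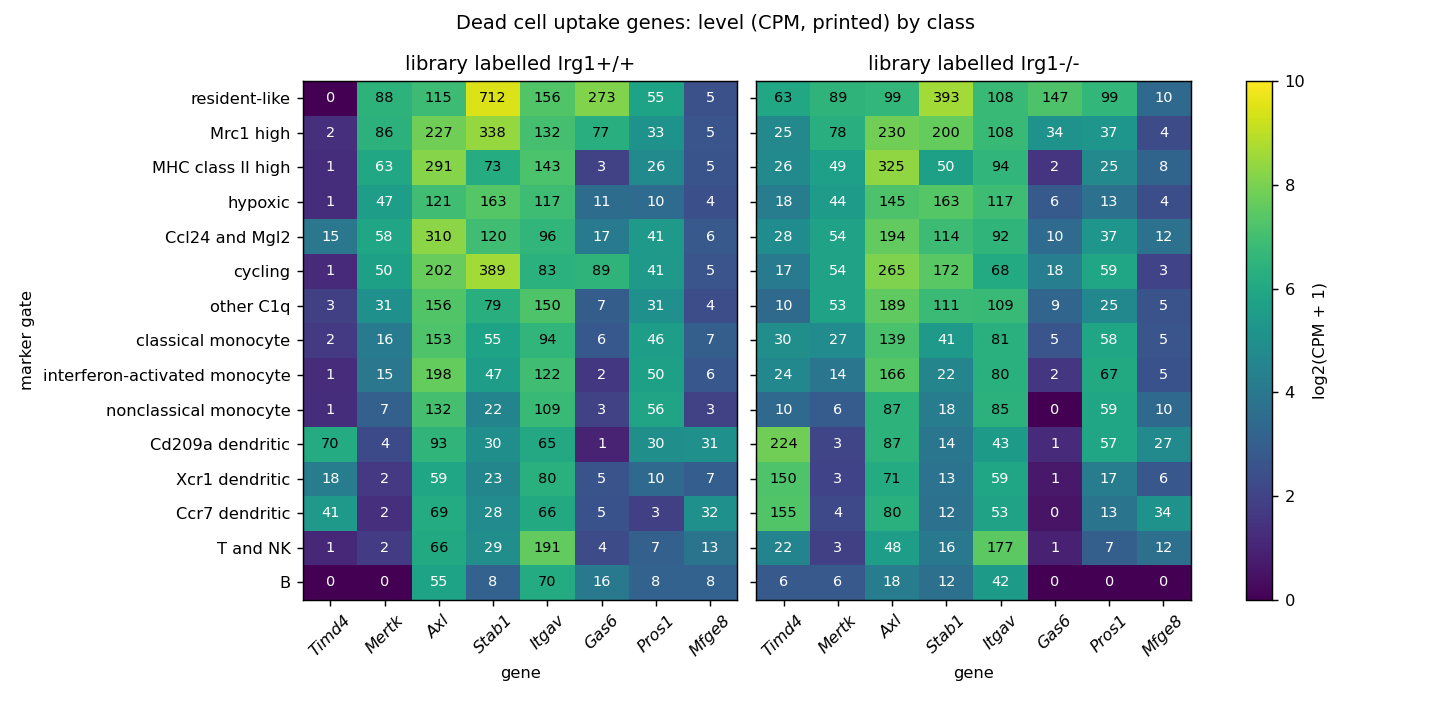
Level of the 8 genes (columns) in the marker gates drawn (rows) for the 2 labelled libraries; numbers are CPM and color is log2(CPM + 1). Mertk, Gas6 and Stab1 are brightest in resident-like macrophages, followed by Mrc1 high cells for Mertk and, in the library labelled Irg1+/+, by cycling cells for Gas6 and Stab1. Among the gates drawn Timd4 is brightest in the 3 dendritic gates and Mfge8 in Cd209a and Ccr7 cells, and Itgav reaches 191.1 and 177.3 CPM in T and NK cells.

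Stab1, the scavenger receptor, was lower in the macrophages of the library labelled Irg1-/-. C1q macrophages had 244.2 CPM (3281 UMIs) and 154.8 CPM (1317 UMIs), a log2 ratio of -0.66 (-0.75 to -0.57). Resident-like macrophages were the highest state in both libraries, with 712.1 CPM (657.6 to 769.8) and 393.2 CPM (345.3 to 445.9). Cycling macrophages had 389.0 and 172.5 CPM and Mrc1 high cells 337.8 and 200.4 CPM, so their order differed between the libraries. In 4 states Stab1 was not lower beyond counting error: hypoxic macrophages had 163.3 CPM in both, Ccl24 and Mgl2 cells 119.8 and 114.3 CPM, and other C1q cells 79.2 and 111.1 CPM (log2 ratio 0.48, -0.00 to 0.99), while Retnla and Ear2 cells had 2 and 9 UMIs. Of the 12 gates 10 were lower in the library labelled Irg1-/-, and in 8 the interval lay below 0. In dendritic cells the 26.1 and 12.9 CPM were no higher than the 29.5 and 15.6 CPM of T and NK cells, and the source of these UMIs was not tested.

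Gas6, the ligand of Axl and Mertk, followed Stab1. In C1q macrophages it had 52.6 CPM (707 UMIs) in the library labelled Irg1+/+ and 23.9 CPM (203 UMIs) in the library labelled Irg1-/-, a log2 ratio of -1.14 (-1.37 to -0.91). It was concentrated in resident-like macrophages, with 272.7 CPM (239.4 to 309.3) and 147.3 CPM (118.6 to 180.8), and in Mrc1 high macrophages, with 77.4 and 33.7 CPM. MHC class II high macrophages had 4 and 3 UMIs, 84.1-fold and 66.7-fold below the resident-like cells. The cycling state had the widest step, from 135 UMIs in 92 cells (88.8 CPM) to 12 UMIs in 44 cells (18.5 CPM), and the latter group is under 50 cells. Dendritic cells had 27 and 4 UMIs (4.24 and 0.740 CPM), beside 4.02 and 0.879 CPM in T and NK cells (log2 ratios 0.09, -0.67 to 0.80, and -0.18, -2.47 to 1.73), so nothing is read from the ratio between libraries.
The bases before the RefSeq starts of these 2 genes are shown beside that of Timd4, because they were lower where Timd4 was higher. Neither has a match to EICE or GGAAGT, so both stand in lower case. Both lie on the minus strand, at chr8:13494536-13494785 for Gas6 and chr14:31168642-31168891 for Stab1 (GRCm38.p6), and are written in the direction of the gene.
Gas6: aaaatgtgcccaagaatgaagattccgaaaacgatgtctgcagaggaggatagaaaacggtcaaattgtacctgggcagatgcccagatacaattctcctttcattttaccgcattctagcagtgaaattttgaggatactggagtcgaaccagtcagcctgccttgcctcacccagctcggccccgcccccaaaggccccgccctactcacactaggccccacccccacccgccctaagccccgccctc
Stab1: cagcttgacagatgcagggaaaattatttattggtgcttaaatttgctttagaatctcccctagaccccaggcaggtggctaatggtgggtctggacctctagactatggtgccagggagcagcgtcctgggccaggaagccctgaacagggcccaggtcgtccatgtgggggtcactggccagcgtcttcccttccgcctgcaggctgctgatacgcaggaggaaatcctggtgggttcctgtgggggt
Gas6 shares its locus with Tmem255b and Stab1 with Nt5dc2, each on the other strand, so some of their UMIs could belong to the partner if counting did not use strand.

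The ratio of Gas6 depended on which macrophages were counted and how. It was -0.49 with cells thinned to 2000 UMIs and -0.79 when CPM was averaged over cells. For Stab1 these were -0.27 and -0.40. Leaving out cells with 2 or more lymphocyte marker UMIs or with a top doublet score kept only 570 and 349 macrophages, with median depths of 1512 and 2215 UMIs. In these Gas6 had 30 and 33 UMIs (18.4 and 28.3 CPM), a ratio of the opposite sign at 0.62. Stab1 then had 153.5 and 145.1 CPM, a log2 ratio of -0.08. With the macrophage states given equal shares in both libraries the log2 ratios were -1.10 for Gas6 and -0.56 for Stab1.

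Pros1, which encodes protein S, the other ligand of this receptor family, was not lower. C1q macrophages had 31.2 and 36.3 CPM (419 and 309 UMIs; log2 ratio 0.22, 0.00 to 0.44), and monocytes had 48.6 and 61.2 CPM (0.33, 0.10 to 0.57). Resident-like macrophages went from 55.2 CPM to 98.7 CPM (log2 ratio 0.84, 0.27 to 1.41). Dendritic cells had 66 UMIs (10.4 CPM) in the library labelled Irg1+/+ and 147 UMIs (27.2 CPM) in the library labelled Irg1-/-, a log2 ratio of 1.39 (0.96 to 1.83), while T and NK cells had 7.39 and 7.16 CPM. Cd209a cells had the highest dendritic level, with 30.3 and 57.1 CPM, and held 32 of the 66 and 89 of the 147 UMIs. Ccr7 cells went from 7 UMIs (2.76 CPM) to 30 UMIs (13.5 CPM).

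Mfge8 was higher in dendritic cells than in macrophages. It had 5.36 and 6.35 CPM in C1q macrophages, against 20.7 and 23.3 CPM in dendritic cells and 13.5 and 11.8 CPM in T and NK cells, so the macrophage level was under the T and NK level. Ccr7 cells had 31.5 and 33.7 CPM, Cd209a cells 31.2 and 26.9 CPM, and Xcr1 cells 6.85 and 5.55 CPM. Retnla and Ear2 macrophages had 36.9 and 9.12 CPM, on 5 and 2 UMIs. Its ratio between libraries in dendritic cells was 0.17 (-0.19 to 0.53).

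Itgav, the integrin subunit, was the least restricted. It had 119.8 and 100.8 CPM in C1q macrophages (log2 ratio -0.25, -0.37 to -0.13), 104.8 and 80.8 CPM in monocytes and 72.1 and 51.6 CPM in dendritic cells. T and NK cells were higher than all of these, with 191.1 and 177.3 CPM. All 12 gates had a lower level in the library labelled Irg1-/-, by log2 ratios between -0.61 and -0.00, and in 7 the interval lay below 0.

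**Figure D4:**
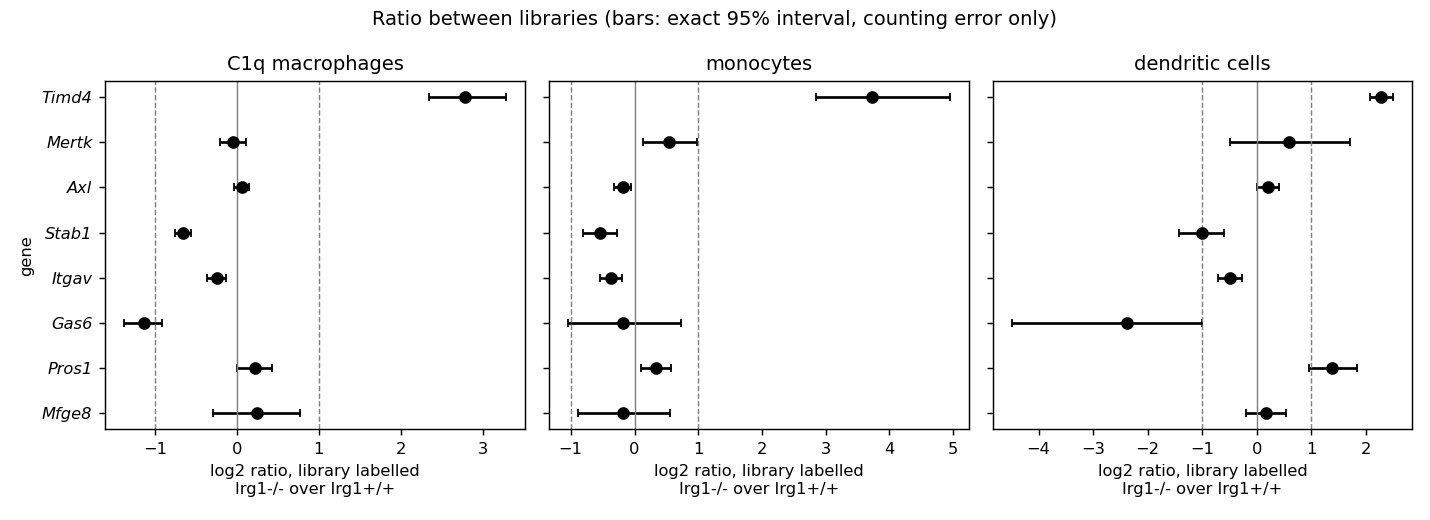
Log2 ratio of the library labelled Irg1-/- over the library labelled Irg1+/+ (horizontal axis) for each gene (vertical axis) in macrophages, monocytes and dendritic cells; bars are exact 95% intervals for counting error and dashed lines mark a 2-fold difference. The 3 panels have different horizontal scales. Timd4 lies right of the dashed line in each, Gas6 lies left of it in macrophages and dendritic cells, and Stab1 sits on it in dendritic cells.

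Taking 2-fold as the measure, 2 of the 8 genes were apart between the libraries in C1q macrophages, Timd4 higher and Gas6 lower in the library labelled Irg1-/-. Of all 11651 genes with 20 or more UMIs there, 3.35% were as far apart, and the genes had been selected on the same counts. Neither call held under all 13 alternatives, described below. The log2 ratio ranged from 0.49 to 3.90 for Timd4 and from -1.17 to 0.62 for Gas6. In dendritic cells 4 of 8 were apart, Timd4 and Pros1 higher and Gas6 and Stab1 lower, against 4.02% of 10932 genes, and the last 2 stood at the T and NK level. Without likely doublets, which left 340 and 263 dendritic cells, Pros1 (16 and 25 UMIs) was under 2-fold, at a log2 ratio of 0.83. In monocytes 1 of 8 was apart, Timd4, against 3.27% of 10646 genes. The median log2 ratio of the 8 in macrophages was 0.01, and that of all genes -0.03.

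Macrophages were compared with dendritic cells inside each library. In the library labelled Irg1+/+ 5 of the 8 genes were at least 2-fold higher in C1q macrophages (Mertk, Axl, Gas6, Pros1 and Stab1), where 12.7% of 11681 genes were. For the library labelled Irg1-/- the number was 4 (Mertk, Axl, Gas6 and Stab1), beside 11.5% of 11219 genes, and Pros1 was 1.33-fold higher. Timd4 and Mfge8 were at least 2-fold higher in dendritic cells in both libraries, as were 10.7% and 9.78% of genes.

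The remaining genes of dead cell uptake lay within 2-fold in C1q macrophages. Of 80 listed by role 71 had 20 or more UMIs, and 0 were 2-fold apart, beside 3.35% of all genes, with a median log2 ratio of 0.03. At 1.5-fold 3 were apart, beside 10.4% of all genes: Socs1, a feedback inhibitor of cytokine signalling (48.3 and 89.1 CPM, log2 ratio 0.88, 0.73 to 1.04), the scavenger receptor gene Scarf1 (10.7 and 18.1 CPM, 0.76, 0.42 to 1.09) and Nr1h3, which encodes a liver X receptor that answers to sterols from engulfed cells (26.2 and 44.1 CPM, 0.75, 0.54 to 0.96). The lowest ratios were those of Odc1, the first enzyme of polyamine synthesis (-0.57, -0.65 to -0.49), the lipid scavenger receptor Cd36 (-0.47, -0.51 to -0.42) and the glucose transporter Slc2a1 (-0.42, -0.51 to -0.34). Slc2a1 also served as a gate marker, as did C1qb.

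By role, the 14 receptors with enough UMIs had a median log2 ratio of 0.18, led in level by Msr1 (1189 and 1003 CPM), Cd36 (778.1 and 563.7 CPM) and Clec12a, an inhibitory receptor for dead cells (337.1 and 423.3 CPM). The 8 bridging molecules had a median of -0.12, with Lgals3 at 4284 and 3643 CPM, C1qb at 2582 and 2930 CPM and Thbs1 at 2287 and 1914 CPM. The 8 brakes and shedding genes had a median of 0.17. They include Sirpa, the receptor for the signal of living cells (434.9 and 417.7 CPM), Socs3 (174.5 and 210.5 CPM) and Adam17, the protease that sheds the product of Mertk (175.3 and 184.3 CPM). The 12 genes of the engulfment machinery had a median of 0.03, among them Cdc42 (1698 and 1737 CPM), Rac2 (441.8 and 491.6 CPM) and Rhoa (450.9 and 461.4 CPM), which drive actin. For the 15 phagosome genes the median was 0.01, with the oxidase subunit Cybb at 997.9 and 1185 CPM, Lamp2 at 880.0 and 816.1 CPM and Rab7 at 781.6 and 726.3 CPM. The 14 lipid and cargo genes had a median of 0.00, the highest being the mitochondrial carrier Ucp2 (1744 and 1853 CPM), then Odc1 (322.7 and 216.8 CPM) and Slc2a1 (267.3 and 199.4 CPM). In dendritic cells 2 of 72 genes were 2-fold apart, beside 4.02% of all genes, Cd36 lower (227.7 and 110.4 CPM) and Nr1h3 higher (13 and 24 UMIs), and in monocytes 1 of 70, beside 3.27%, Socs1 (55.8 and 116.4 CPM). Neither share was above that of all genes.

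**Figure D5:**
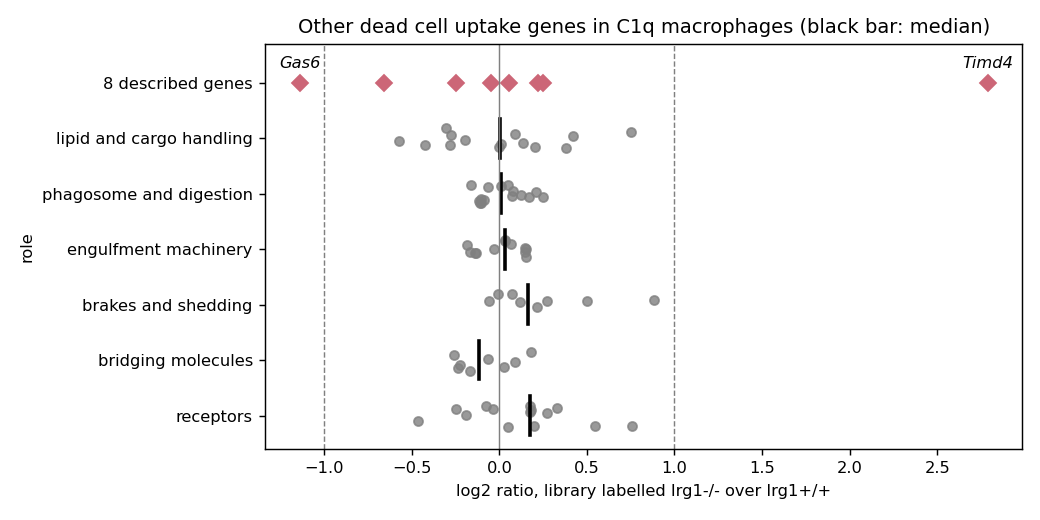
Log2 ratio of the library labelled Irg1-/- over the library labelled Irg1+/+ in C1q macrophages (horizontal axis) for the other dead cell uptake genes by role (gray points, black bar the median) and for the 8 described genes (diamonds). The gray points all lie between the dashed 2-fold lines, while Timd4 at 2.79 and Gas6 at -1.14 lie outside.

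Genes whose levels ran most like each member were sought over 14 gates with 50 or more cells in each library, 28 points that share 2 libraries, among 10737 genes. Cycling macrophages were left out by that limit. For Timd4 they were Arhgef10 (Pearson r = 0.82), Asprv1 (0.81), Crip1 (0.79), Zfp366 (0.76), a transcription factor of dendritic cells, and Tgtp1 (0.75). Mertk ran with C3ar1 (0.97), Adgre1, a gate marker that encodes the macrophage antigen F4/80 (0.96), and Sash1 (0.96). Stab1 ran with Igf1 (0.95), Snx6 (0.95) and Timp2 (0.94), and Gas6 with Ccl8 (0.89), a gate marker, Twf1 (0.89) and Timp2 (0.89). For Axl the nearest were Alas1, Pparg and Mbnl2 (0.87, 0.86 and 0.86), for Pros1 Abca9, Gpr146 and Arpc1b (0.90, 0.89 and 0.87), for Mfge8 Marveld1, Gstt3 and Sumo2 (0.87, 0.86 and 0.79), and for Itgav Btbd19, Kpna6 and Slc16a1 (0.84, 0.82 and 0.81). Among the members themselves Stab1 and Mertk had the highest r (0.89), then Stab1 and Gas6 (0.83).

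Markers of other cells also differed between the libraries. The 4 melanoma markers, all with UMIs, summed to 180.4 CPM in C1q macrophages of the library labelled Irg1+/+ and 99.5 CPM in those of the library labelled Irg1-/-, with Dct the most abundant (86.9 and 47.1 CPM). In dendritic cells they summed to 163.3 and 48.1 CPM. The 4 fibroblast markers summed to 7.89 and 11.6 CPM in macrophages, with Pdgfra at 0 in the library labelled Irg1+/+, and Col1a1 was the most abundant (4.32 and 5.41 CPM). The 3 endothelial markers summed to 21.2 and 34.7 CPM, nearly all from Kdr (19.9 and 33.0 CPM), with Cldn5 at 0. The 7 T cell markers summed to 336.5 and 230.4 CPM in macrophages, with Trac the most abundant (113.9 and 75.0 CPM), and to 292.0 and 207.9 CPM in dendritic cells. NK cell markers went the other way. Their medians per 10000 UMIs were 0.0 and 1.35 in macrophages, 0.0 and 1.48 in monocytes and 0.0 and 1.46 in dendritic cells. The part of these in the ratios was not tested. A lower level in a class and fewer expressing cells within it cannot be told apart from sums alone.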

How the data were processed

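The authors deposited raw UMI counts per gene and cell for each library, without normalization (per the labels and the study's methods, which align reads with STAR after UMI-tools barcode detection). Tools named in the submitters' processing notes include UMI-tools, Seurat and CASAVA 1.8, and the genome was GRCm38. Cells with more than 200 genes and under 10% mitochondrial UMIs were kept (6284 of 6408 and 5794 of 5896), and the 13 mitochondrial genes were then left out. Cells were gated by marker UMIs per 10000, with thresholds set on the markers' own distributions. The members, marker lists and gene lists were chosen with earlier results of these data known.

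Counts were summed per class and library and divided by the class total (CPM). Intervals are exact: Poisson for levels, Clopper-Pearson for shares, conditional binomial for ratios, at 95%. Ratios used a pseudocount of 0.5 UMI. A gene was called at 2-fold with 20 or more UMIs over both libraries, and a count of 0 was given a limit of 3 UMIs. UMIs of 1 pooled library are not replicates, so no p-value is given. The interval code was tested on simulated data: for C1q macrophages, with 200 of 11651 genes changed, 96.0% of the intervals held the true ratio. Doublets were kept, and were left out in an alternative. Named genes were the 8 members in every gate, the 3 most alike by Pearson r (5 for Timd4), and for the 80 listed genes the 3 highest and lowest ratios with 100 or more UMIs and the 3 highest levels per role. Positions come from GENCODE M21 (GRCm38; 31107 of 31253 identifiers matched) and promoters from RefSeq (GRCm38.p6). Python 3.11.15, scipy 1.17.1, scanpy 1.11.5 and edgeR 4.0.16 (TMM factors only) were used.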

Additional observations from a re-analysis of the deposited data

Results flagged for a closer look

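Cells that passed no marker gate were in no comparison between gates and entered only the sums over all kept cells. In the library labelled Irg1-/- these 609 cells had 502 Timd4 UMIs, or 158.9 CPM (145.3 to 173.4), which was 23.9% of all Timd4 UMIs of that library and above the level in T and NK cells. The 791 such cells of the library labelled Irg1+/+ had 106 UMIs (30.5 CPM). When cells were clustered without the 8 genes, 185 of the 609 fell in clusters made up mostly of gated dendritic cells, and these held 82.5% of the ungated Timd4 UMIs at 336.2 CPM. In the library labelled Irg1+/+ the corresponding 146 cells held 78.3% at 97.4 CPM.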

How the results depend on the processing

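No paired analysis was possible because each genotype had 1 pooled library. The log2 ratio of Timd4 in C1q macrophages, 2.79, was 3.32 when CPM was averaged over cells, 3.31 with cells thinned to 2000 UMIs and 3.32 with Leiden clusters in place of gates. Alternatives chosen after seeing the data gave 3.90 without the cell holding most UMIs of each gene, 2.04 with the T and NK level subtracted per cell and 0.49 with it subtracted per UMI. That level includes the clusters with Foxp3 among their leading genes, where 1 cell held 52 of 104 Timd4 UMIs, and with the level of the other T and NK cells subtracted per UMI the ratio was 2.54. The ratio in dendritic cells stayed between 1.75 and 2.43 under all 12 alternatives. The count of members 2-fold apart in macrophages, 2, was 1 with CPM averaged over cells, with thinned cells, without likely doublets (Gas6 at 0.62, the opposite sign) and with the T and NK level subtracted per UMI. The count of other uptake genes 2-fold apart, 0, was 1 with CPM averaged over cells, 3 with no filter on low counts and 3 at 1.5-fold. The count higher in macrophages than in dendritic cells ranged from 5 to 6 and from 3 to 5. After subtraction of the T and NK level per UMI, Stab1 and Itgav were at 0 in the dendritic cells of both libraries and had no ratio. Itgav was higher in T and NK cells than in macrophages, monocytes and dendritic cells, and whether the Axl UMIs of T and NK cells are their own was not tested, so nothing is read from that subtraction for these genes. In dendritic cells the ratio of Pros1, 1.39, was 0.83 without likely doublets, under 2-fold, and that of Stab1, close to 2-fold, ranged from -1.30 to -0.38, the latter with the T and NK level subtracted per cell. The causes were not tested. The Timd4 ratio in macrophages rests on 48 UMIs in the library labelled Irg1+/+.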
